A study of Mus musculus with 30 samples.

Results

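The p53 target genes described here are 10 genes known to be switched on by the tumour suppressor p53: Cdkn1a, Mdm2, Ccng1, Bax, Eda2r, Phlda3, Sesn1, Zmat3, Trp53inp1 and Gtse1. They were taken by name, after the Ensembl identifiers of the deposited tables had been matched to gene symbols, and all 10 were found among the 41388 genes listed. RNA was sequenced from 20 poly(A)-selected libraries, each made from RNA of 3 to 4 mice that was pooled. The study set mice carrying an A1cf transgene, and mice lacking A1cf, against wild-type mice of matched age. A1cf encodes an RNA-binding protein that takes part in editing of Apob mRNA.

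The groups were 3 pools of Tg hepatocytes (strain label A1cf_Tg/+) and 3 pools of wild-type hepatocytes (C57BL/6J), both at 12 weeks, 4 pools of Tg livers (A1cf_Tg/+) and 4 pools of wild-type C57BL/6J livers, both at 12 months, and 3 pools of knockout livers (A1cf-/-) and 3 pools of wild-type C57BL/6NJ livers, also at 12 months. The hepatocytes were freed from livers with collagenase and kept overnight on collagen-coated dishes, so they are plated primary cells and not tissue. Tg and C57BL/6J livers were sequenced in one study and knockout and C57BL/6NJ livers in another. The promoter that drives the transgene, and the make-up of the knockout allele, are not given in the sources used here.

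p53 is a transcription factor that is kept at low levels in resting tissue and is stabilised by DNA damage and other stresses. It binds short paired sequence elements near its target genes and raises their transcription. The products of these genes stop the cell cycle, promote cell death or repair, or, in the case of Mdm2, return p53 to a low level. In liver, p53 and its target Cdkn1a are known for restraining the division of damaged hepatocytes.

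Promoter sequences are shown for the 3 genes that passed the test in a comparison of Tg with wild-type samples, with matches to the element that p53 is known to bind. In GRCm38, as the deposited tables give it, the gene Cdkn1a (ENSMUSG00000023067) spans chr17:29090979-29100722, Eda2r (ENSMUSG00000034457) spans chrX:97333840-97377216 and Ccng1 (ENSMUSG00000020326) spans chr11:40748552-40755311. RefSeq promoter windows (GRCm38.p6), from 250 bases before to 50 bases after an annotated transcription start, were found for 8 of the 10 members, in 11 windows, and not for Zmat3 and Trp53inp1. Capitals mark exact matches to the 10-base p53 half-site consensus, which reads 3 purines, a C, A or T at both central positions, a G and 3 pyrimidines, and which reads the same on either strand. Positions are counted from the annotated start base as 0. The window shown for Cdkn1a, the first for that gene, lies at chr17:29090729-29091028 on the plus strand. Those for Eda2r and Ccng1 lie at chrX:97377160-97377459 and chr11:40755237-40755536, both on the minus strand. Each is written 5′ to 3′ along its gene.

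Cdkn1a: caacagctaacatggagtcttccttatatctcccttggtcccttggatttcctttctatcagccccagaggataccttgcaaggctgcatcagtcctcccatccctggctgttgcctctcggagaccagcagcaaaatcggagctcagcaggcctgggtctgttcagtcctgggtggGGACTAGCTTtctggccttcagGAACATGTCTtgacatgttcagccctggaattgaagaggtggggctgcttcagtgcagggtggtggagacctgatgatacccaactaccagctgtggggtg

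Eda2r: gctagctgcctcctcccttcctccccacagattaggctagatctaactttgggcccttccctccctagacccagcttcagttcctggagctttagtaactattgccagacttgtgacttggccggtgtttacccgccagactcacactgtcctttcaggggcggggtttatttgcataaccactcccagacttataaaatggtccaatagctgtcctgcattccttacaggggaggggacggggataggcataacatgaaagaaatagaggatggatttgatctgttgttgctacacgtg

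Ccng1: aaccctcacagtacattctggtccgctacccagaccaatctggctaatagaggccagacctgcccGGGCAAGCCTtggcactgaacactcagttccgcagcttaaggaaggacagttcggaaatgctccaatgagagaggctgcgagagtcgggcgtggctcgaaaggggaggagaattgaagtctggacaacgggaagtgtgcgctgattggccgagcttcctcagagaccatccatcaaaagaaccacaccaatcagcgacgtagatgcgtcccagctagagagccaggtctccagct

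The first Cdkn1a window held 2 half-sites, GGACTAGCTT from position -73 and GAACATGTCT from position -51. The second of these half-sites is followed directly by a further copy with 1 mismatch (tgacatgttc). A second Cdkn1a window, at chr17:29093519-29093818 on the plus strand, held no half-site and is not shown. The Ccng1 window held GGGCAAGCCT from position -185, preceded directly by a copy with 1 mismatch (agacctgccc). The Eda2r window held no half-site. Among the others, Mdm2 held GAACTTGCCT from position -186, Bax held AGGCAAGCTT from position -201, Sesn1 held AAGCTTGTTT from position -173 of its second window and Gtse1 held GGGCTTGCCT from position 9 of its second window. In all, 6 of the 8 matched members had a half-site, against 9.55% of all 27025 genes with a window. A pair of half-sites, at most 13 bases apart and with at most 1 mismatch outside the central C and G, stood in 3 of the 8 (Cdkn1a, Ccng1 and Gtse1), against 0.718% of all genes. The 2 pairs of Cdkn1a share the half-site at position -51, and the 2 pairs of Gtse1 share the one at position 9. These are matches of letters in a window of fixed length and were not tested for binding.

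Library totals ran from 17044839 to 37211328 counts. Levels are given as CPM, the deposited read count scaled so that every library has the same total. As a check of the labels, mean A1cf was 24.5 CPM in knockout livers and 213 CPM in C57BL/6NJ livers (log2 -3.12 ± 0.15, adjusted p = 1.59e-05 by the edgeR test described below). It was 163 CPM in livers labelled Tg and 232 CPM in C57BL/6J livers (log2 -0.65 ± 0.11, adjusted p = 0.0369), and 9.23 CPM in hepatocytes labelled Tg and 9.35 CPM in wild-type hepatocytes (log2 0.02, adjusted p = 0.962). The counts thus go against a raised A1cf transcript in the libraries labelled Tg, and whether transcripts of the transgene are counted under this gene is not given in the sources used here. Tg is used below as the name of a label only. Albumin, a defining transcript of hepatocytes, was at 30980 CPM or more in all 20 libraries. Pool 2 of the C57BL/6J livers stood apart, with 2115 CPM summed over 10 skeletal muscle genes, against at most 3.14 CPM in the other Tg and C57BL/6J livers, and with 935 CPM of Xist and 0.198 CPM of the Y-linked Ddx3y, against at most 3.91 and at least 30.5 CPM in those livers. The knockout livers had 111.7, 20.8 and 92.9 CPM of the same muscle genes, against at most 1.16 CPM in C57BL/6NJ livers. In bulk samples such as these, a lower share of cells of a type and less RNA per cell cannot be told apart.

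For 9 of the 10 members, the highest group mean lay in one kind of sample, plated hepatocytes or liver, and the lowest in the other. Group means of Cdkn1a, the cyclin-dependent kinase inhibitor p21 that halts the cell cycle, spanned 142-fold, from 390 ± 77.5 CPM in Tg hepatocytes (SD, n = 3) to 2.75 ± 0.904 CPM in C57BL/6J livers (SD, n = 4). The span was 53.3-fold for Phlda3, 41.8-fold for Gtse1 and 33.3-fold for Eda2r. It was smallest for Trp53inp1, at 2.86-fold, with Tg hepatocytes lowest and wild-type hepatocytes highest, and there the neighbouring groups overlapped at every step of the order. The order of Cdkn1a ran from Tg hepatocytes through wild-type hepatocytes, Tg livers, C57BL/6NJ livers and knockout livers to C57BL/6J livers, and the ranges of Tg and C57BL/6NJ livers, and of C57BL/6NJ and knockout livers, overlapped. Eda2r ran from wild-type hepatocytes through Tg hepatocytes, Tg livers, C57BL/6NJ livers and knockout livers to C57BL/6J livers, with only the C57BL/6NJ and knockout ranges overlapping. The 2 wild-type liver groups were not level with each other: Eda2r averaged 2.30 ± 0.493 CPM in C57BL/6NJ livers (SD, n = 3) and 0.926 ± 0.435 CPM in C57BL/6J livers (SD, n = 4), and substrain and sequencing study cannot be told apart there.

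**Figure D1:**
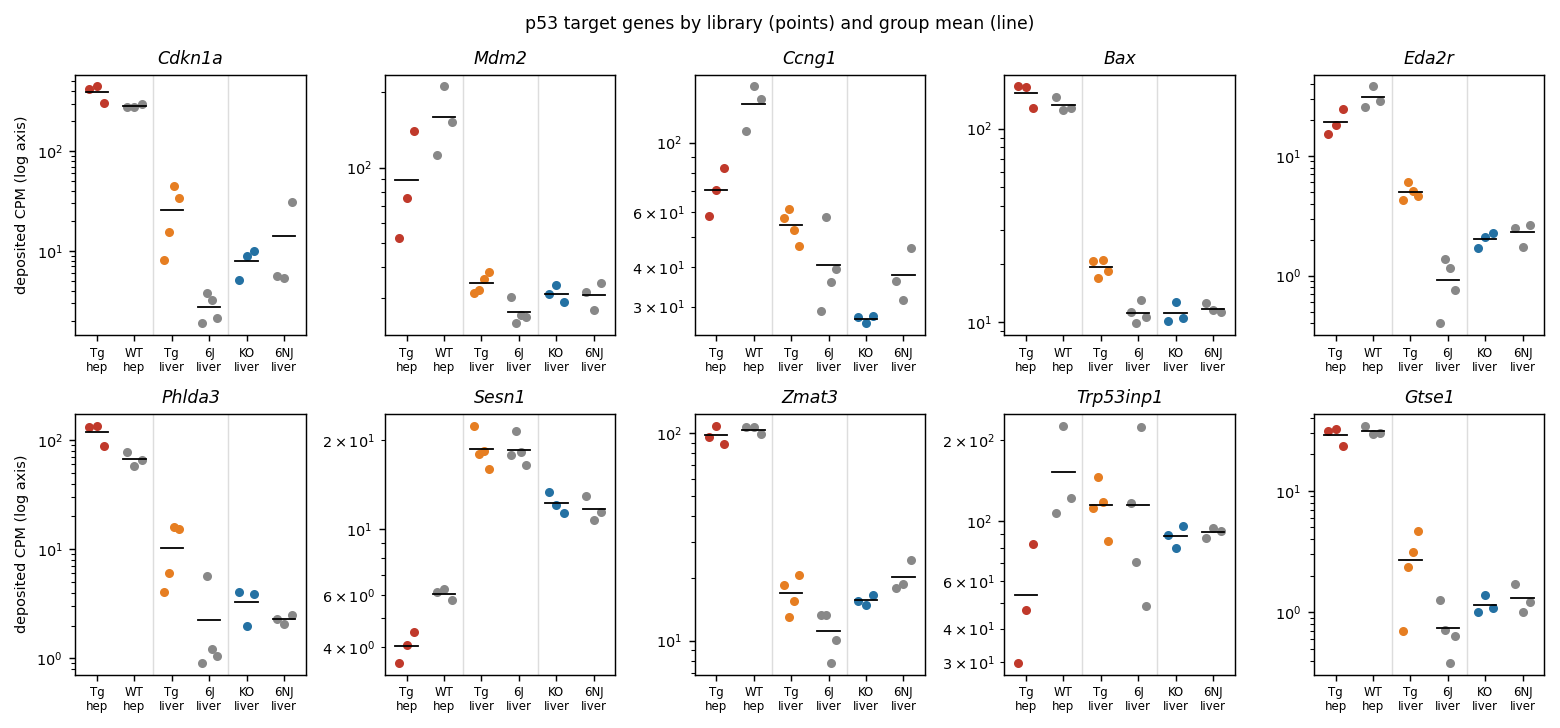
Deposited CPM of the 10 p53 target genes (log axis), 1 panel per gene, with 1 point per pooled library and a line at the group mean. Groups from left to right are Tg and wild-type hepatocytes, Tg and C57BL/6J (6J) livers, and knockout (KO) and C57BL/6NJ (6NJ) livers. Sesn1 alone was lower in both hepatocyte groups than in all 4 liver groups, and the Tg livers of Eda2r lay between 4.32 and 6.03 CPM, above the other 3 liver groups.

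Relative to transcript length, Bax and Cdkn1a were the most abundant members in plated cells. In reads per kilobase of transcript, scaled to the library total (RPKM), Bax averaged 175 ± 24.0 in Tg hepatocytes and 152 ± 13.1 in wild-type hepatocytes (SD, n = 3 each). Cdkn1a averaged 175 ± 34.8 RPKM in Tg hepatocytes and 128 ± 4.38 RPKM in wild-type hepatocytes. Bax encodes the protein that opens the outer mitochondrial membrane in apoptosis. In livers Bax averaged 22.2 ± 2.19 RPKM in Tg and 12.9 ± 1.53 RPKM in C57BL/6J samples (SD, n = 4 each), and Trp53inp1, a stress-induced nuclear partner of p53, averaged 17.8 ± 3.93 RPKM in Tg and 17.8 ± 12.1 RPKM in C57BL/6J samples. Eda2r, a receptor of the tumour necrosis factor family that binds ectodysplasin A2, was the rarest member per length in these livers, at 0.850 ± 0.127 RPKM in Tg and 0.157 ± 0.0738 RPKM in C57BL/6J samples.

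The first comparison asked how the members differed between livers labelled Tg and livers of wild-type mice. Cdkn1a and Eda2r rose in the livers labelled Tg, by 9.35 and 5.41 times in mean CPM, and no member fell. The other 8 did not pass the test, which is the edgeR quasi-likelihood test with Benjamini-Hochberg adjustment over all 14110 genes and a threshold of 0.05 on the adjusted p. All adjusted p-values given below come from this test unless another tool is named, and each fold change is given as a log2 value ± its standard error (SE). Of all genes tested, 0.971% were called higher, 0.361% lower and 1.33% in either direction. An unadjusted p under 0.05 was found for 7 members and for 20.3% of all genes tested. DESeq2, run as an alternative, called 5 members (Cdkn1a, Bax, Eda2r, Phlda3 and Gtse1) and 9.22% of the genes to which it gave an adjusted p. The members' median log2 fold change was 0.56, against 0.00 for all genes tested.

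Among the genes of cell cycle arrest, Cdkn1a stood at 8.19, 15.4, 45.1 and 34.0 CPM in Tg livers, against 1.88, 3.79, 3.20 and 2.11 CPM in C57BL/6J livers. Every Tg pool exceeded every wild-type pool, and within Tg livers pools 3 and 4 were above pools 1 and 2. The log2 fold change was 3.04 ± 0.49 (adjusted p = 0.032). Gtse1, a microtubule-binding protein of dividing cells that in human cells carries p53 out of the nucleus, stood at 0.710, 2.36, 3.14 and 4.67 CPM in Tg livers, against 1.25, 0.711, 0.386 and 0.645 CPM in C57BL/6J livers. Pool 1 of the Tg livers lay inside the wild-type range and the other 3 lay above it, with a log2 fold change of 1.70 ± 0.53 (adjusted p = 0.121). Ccng1, cyclin G1, a partner of a phosphatase subunit that acts on Mdm2, had 57.5, 61.4, 52.8 and 46.8 CPM in Tg livers, against 29.1, 57.8, 35.9 and 39.5 CPM in C57BL/6J livers. The groups overlapped through wild-type pool 2, the one with muscle and Xist transcripts. The log2 fold change was 0.30 ± 0.19 (adjusted p = 0.416).

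In the negative feedback arm, Mdm2, the ubiquitin ligase that marks p53 for breakdown, had 31.5, 32.5, 35.8 and 38.2 CPM in Tg livers, against 30.6, 23.9, 25.9 and 25.3 CPM in C57BL/6J livers. The groups did not overlap, but the lowest Tg pool was close to the highest wild-type pool, and the log2 fold change of 0.25 ± 0.11 did not pass the test (adjusted p = 0.239).

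Among the genes of cell death, Eda2r stood at 4.32, 6.03, 5.07 and 4.61 CPM in Tg livers, against 0.399, 1.38, 1.16 and 0.763 CPM in C57BL/6J livers. All 4 Tg pools were above all 4 wild-type pools and close to each other, unlike those of Cdkn1a. Counts of Eda2r were low in the C57BL/6J livers, at 7, 35, 21 and 13. The log2 fold change was 2.27 ± 0.34 (adjusted p = 0.0215). Bax had 20.8, 17.0, 20.9 and 18.5 CPM in Tg livers, against 11.3, 9.88, 13.01 and 10.7 CPM in C57BL/6J livers. These groups did not overlap either, and the log2 fold change of 0.64 ± 0.14 came with an adjusted p of 0.0568. Phlda3, which blocks Akt from reaching the membrane, had 4.04, 6.03, 16.03 and 15.4 CPM in Tg livers, against 0.912, 5.73, 1.21 and 1.06 CPM in C57BL/6J livers. Wild-type pool 2 alone overlapped the Tg range, and the log2 fold change was 2.04 ± 0.65 (adjusted p = 0.129). Without that pool, the one with muscle and Xist transcripts, it was 3.08 (adjusted p = 0.0296).

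Zmat3, a zinc finger protein that binds RNA, had 18.6, 13.01, 15.6 and 20.8 CPM in Tg livers, against 13.3, 13.3, 7.83 and 10.0 CPM in C57BL/6J livers, and 1 Tg pool lay inside the wild-type range. Its log2 fold change was 0.48 ± 0.19 (adjusted p = 0.211). Trp53inp1 had 112, 147, 118 and 84.5 CPM in Tg livers, against 117, 70.6, 224 and 48.6 CPM in C57BL/6J livers. The wild-type pools spread wider than the Tg pools and enclosed them, with a log2 fold change of -0.15 ± 0.43 (adjusted p = 0.871). Sesn1, a sestrin that restrains the growth kinase mTORC1 under stress, had 22.3, 17.9, 18.4 and 15.9 CPM in Tg livers, against 17.8, 21.5, 18.2 and 16.4 CPM in C57BL/6J livers. The groups overlapped throughout, and the log2 fold change was -0.12 ± 0.14 (adjusted p = 0.67).

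Counted over single libraries, 4 members (Cdkn1a, Mdm2, Bax and Eda2r) were higher in every Tg liver than in every C57BL/6J liver and none was lower in every one. Of all genes tested, 11.3% were higher in that sense, 2.14% lower and 13.4% either. With the replicate number as a block, the adjusted p was 0.0544 for Cdkn1a and 0.0551 for Eda2r. Leaving out 1 library left Cdkn1a between 2.65 and 3.31 and Eda2r between 2.02 and 2.51 on the log2 scale, but the adjusted p passed 0.05 without Tg pool 3, Tg pool 4, C57BL/6J pool 3 or C57BL/6J pool 4 for both genes, and for Cdkn1a also without C57BL/6J pool 1, to at most 0.105 and 0.0887.

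**Figure D2:**
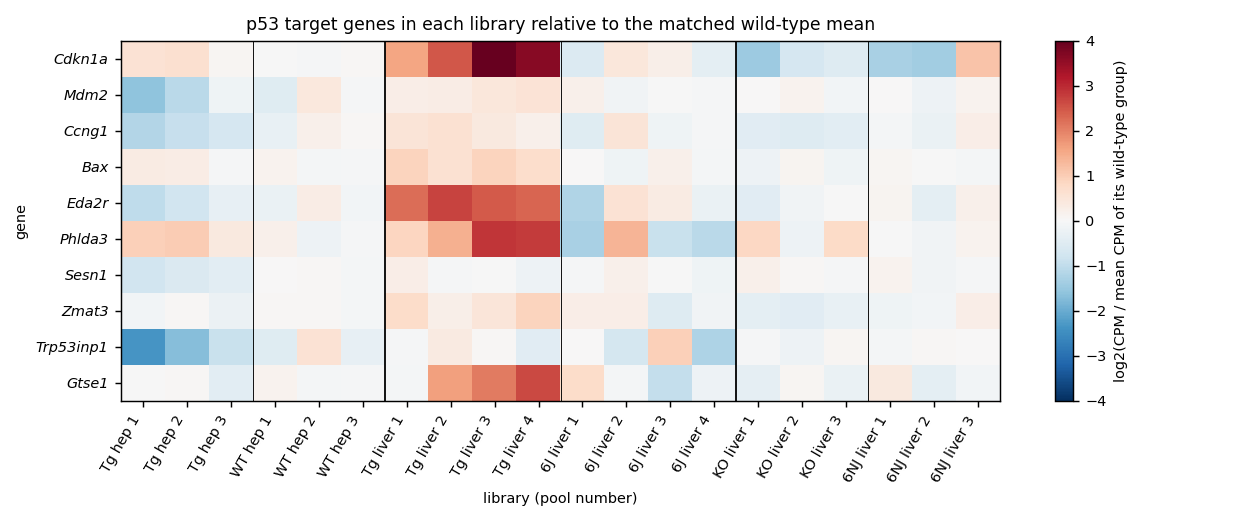
Each member's CPM in each library relative to the mean CPM of the wild-type group of its own comparison, as log2 (colour scale, red higher and blue lower). Columns are pools, in the order Tg hepatocytes, wild-type hepatocytes, Tg livers, C57BL/6J livers, knockout livers and C57BL/6NJ livers. Cdkn1a and Phlda3 were highest in Tg liver pools 3 and 4, whereas Eda2r was raised to a like degree in all 4 Tg liver pools.

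Genes of cell division were, like Cdkn1a, Phlda3 and Gtse1, highest in Tg liver pools 3 and 4. The summed level of 16 proliferation genes was 22.1, 28.0, 93.1 and 82.2 CPM in Tg livers, against 13.3, 23.0, 10.3 and 13.7 CPM in C57BL/6J livers, so that pools 3 and 4 stood well above all others. In edgeR none of the 14 tested proliferation genes passed, 13 had an unadjusted p under 0.05, and DESeq2 called 10. Their median log2 fold change was 1.85. Such a p was found for 20.3% of all genes tested, and DESeq2 called 9.22% of those given an adjusted p. Plk1, a mitotic kinase, averaged 2.61 CPM in Tg livers and 0.252 CPM in C57BL/6J livers, a log2 difference of 3.17 ± 0.66 (adjusted p = 0.0544). Without Tg pools 3 and 4, a choice made after the values were seen, Cdkn1a was higher by 2.00 on the log2 scale (adjusted p = 0.126) and Eda2r by 2.37 (adjusted p = 0.145). The summed level of 10 macrophage markers ranged from 439.5 to 695.9 CPM in Tg livers and from 268.5 to 523.7 CPM in C57BL/6J livers. Only wild-type pool 2 reached the Tg range, and the remaining C57BL/6J pools had at most 314.6 CPM. Of these 10 markers, 7 had an unadjusted p under 0.05, none passed in edgeR and DESeq2 called 3. The summed level of 10 lymphocyte markers ranged from 35.2 to 149.7 CPM in Tg livers and from 14.9 to 67.0 CPM in C57BL/6J livers. Ighm made up most of it, at 23.3 to 119 CPM in Tg livers and 8.11 to 49.4 CPM in C57BL/6J livers. Summed over 10 hepatocyte markers, Tg livers ranged from 78620 to 88140 CPM and C57BL/6J livers from 109500 to 112300 CPM, with no overlap. None of these 10 markers passed in edgeR, and DESeq2 called 1, Alb, by far the largest part of the sum. Alb was lower in every Tg pool, at 43690 to 50350 CPM, against 74450 to 77430 CPM in C57BL/6J livers. Fgb was higher in every Tg pool, and the ranges of the remaining markers overlapped. The log2 fold change was below 0 for 8 markers and above 0 for 2, with a median of -0.25. The neutrophil markers summed to 4.17 to 17.6 CPM in Tg livers and 1.58 to 3.28 CPM in C57BL/6J livers, again with no overlap. The markers of stellate cells and fibroblasts summed to 644.1 to 861.4 CPM in Tg livers and 413.6 to 704.2 CPM in C57BL/6J livers. Only wild-type pool 2, the one with muscle and Xist transcripts, reached the Tg range. In that pool Des stood at 121.9 CPM, against 5.46 to 9.04 CPM in the remaining C57BL/6J pools. Of 10 such markers, 2 rose by edgeR, Pdgfrb (log2 0.86 ± 0.14, adjusted p = 0.0294) and Lum (log2 1.74 ± 0.34, adjusted p = 0.0464), and DESeq2 called 5. The 8 cholangiocyte markers summed to 109.9, 101.6, 184 and 190.3 CPM in Tg livers, against 81.1 to 102.4 CPM in C57BL/6J livers, so that Tg pools 3 and 4 were again highest. Of these markers, 7 had a log2 fold change above 0 and 1 below. None passed in edgeR, and DESeq2 called 1, Spp1. The part of dividing or other cells in the members' differences was not tested.

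**Figure D3:**
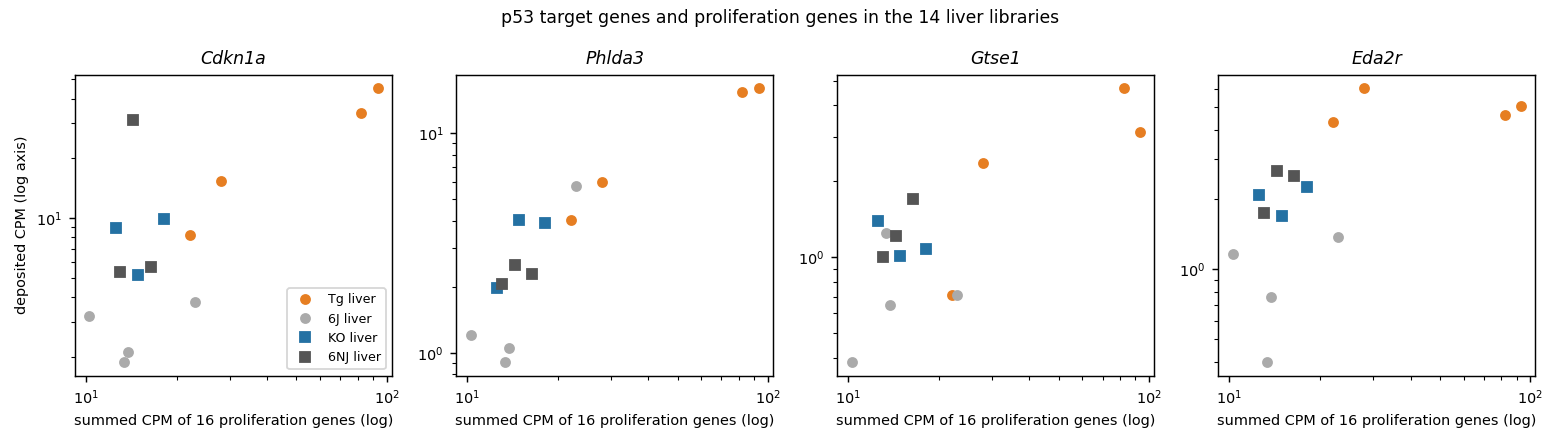
Deposited CPM of Cdkn1a, Phlda3, Gtse1 and Eda2r (log axis) against the summed CPM of 16 proliferation genes (log axis) in the 14 liver libraries, as a description with no test. Tg liver pools 3 and 4, at 93.1 and 82.2 CPM of the proliferation genes, also had the highest Cdkn1a, Phlda3 and Gtse1, but not the highest Eda2r. Orange circles are Tg, light grey circles C57BL/6J, blue squares knockout and dark grey squares C57BL/6NJ livers.

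Of the other genes of the pathway, Steap3 and Bok passed the edgeR test in Tg livers. For comparison, 20.3% of all genes tested had an unadjusted p under 0.05, and DESeq2 called 9.22% of those given an adjusted p. Trp53 itself, which encodes p53, averaged 23.4 CPM in Tg livers and 19.1 CPM in C57BL/6J livers, a log2 difference of 0.15 ± 0.13 (adjusted p = 0.545). None of 18 tested regulators of p53 passed (1 at an unadjusted p under 0.05, none in DESeq2). The same held for 5 other arrest targets, 9 other apoptosis targets and 7 repair targets, of which 1, 2 and 2 had an unadjusted p under 0.05 and none was called by DESeq2. Of 11 metabolic targets, 3 had an unadjusted p under 0.05. Steap3, a ferric reductase, rose by edgeR, with 59.3 CPM in Tg livers and 24.0 CPM in C57BL/6J livers (log2 1.16 ± 0.20, adjusted p = 0.0369). DESeq2 also called the glutaminase Gls2, with 319.7 CPM in Tg livers and 433.9 CPM in C57BL/6J livers (edgeR log2 -0.58 ± 0.13, adjusted p = 0.0636). Of 18 partners and paralogues, 3 had an unadjusted p under 0.05. Bok, a relative of Bax, rose by edgeR, with 18.3 CPM in Tg livers and 5.52 CPM in C57BL/6J livers (log2 1.57 ± 0.28, adjusted p = 0.0377). DESeq2 also called Ccng2, cyclin G2, with 17.04 CPM in Tg livers and 10.7 CPM in C57BL/6J livers (edgeR log2 0.53 ± 0.13, adjusted p = 0.0711).

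The second comparison put the same question to plated hepatocytes of younger mice. Ccng1 fell in hepatocytes labelled Tg, to 0.532 of the wild-type mean, and no other member passed the test over 13770 genes. Of all genes tested, 1.53% were called higher, 1.62% lower and 3.15% in either direction. An unadjusted p under 0.05 was found for 6 members and for 28.9% of all genes tested. DESeq2 called 3 members (Ccng1, Phlda3 and Trp53inp1) and 15.3% of the genes to which it gave an adjusted p. The members' median log2 fold change was -0.31, against -0.02 for all genes tested. Cdkn1a and Phlda3 were higher in every Tg pool than in every wild-type pool, and Ccng1, Eda2r, Sesn1 and Trp53inp1 were lower in every one. That was the case for 15.7% of all genes tested (higher), 16.8% (lower) and 32.5% (either).

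Among the arrest genes, Ccng1 stood at 58.4, 70.5 and 82.7 CPM in Tg hepatocytes, against 109, 151 and 138 CPM in wild-type hepatocytes. The ranges were apart, and the log2 fold change was -0.87 ± 0.17 (adjusted p = 0.0468). Cdkn1a had 421, 447 and 301 CPM in Tg hepatocytes, against 279, 277 and 295 CPM in wild-type hepatocytes. Tg pool 3 was only just above the wild-type pools, and the log2 fold change of 0.50 ± 0.18 did not pass (adjusted p = 0.131). Gtse1 had 31.0, 32.3 and 23.5 CPM in Tg hepatocytes, against 34.4, 29.6 and 30.0 CPM in wild-type hepatocytes, with overlapping ranges and a log2 fold change of -0.07 ± 0.18 (adjusted p = 0.793).

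Mdm2 had 52.5, 75.5 and 140 CPM in Tg hepatocytes, against 112, 211 and 152 CPM in wild-type hepatocytes. The third Tg pool lay inside the wild-type range, and the log2 fold change was -0.80 ± 0.37 (adjusted p = 0.201). Trp53inp1 showed the same order of pools, with 29.9, 47.0 and 82.7 CPM in Tg hepatocytes, against 108, 227 and 122 CPM in wild-type hepatocytes. Here the groups did not overlap, and the log2 fold change of -1.49 ± 0.42 came with an adjusted p of 0.0911.

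Of the remaining cell death genes, Phlda3 had 132, 136 and 88.7 CPM in Tg hepatocytes, against 77.6, 58.6 and 65.5 CPM in wild-type hepatocytes. All Tg pools were above all wild-type pools, and the log2 fold change was 0.86 ± 0.22 (adjusted p = 0.0744). Eda2r had 15.3, 18.1 and 24.6 CPM in Tg hepatocytes, against 25.8, 38.1 and 28.7 CPM in wild-type hepatocytes, so it was lower in each Tg pool (log2 -0.64 ± 0.23, adjusted p = 0.133). Bax had 165, 164 and 128 CPM in Tg hepatocytes, against 145, 125 and 127 CPM in wild-type hepatocytes, with overlapping ranges (log2 0.25 ± 0.16, adjusted p = 0.312). Zmat3 had 96.4, 109 and 88.9 CPM in Tg hepatocytes, against 107, 107 and 98.8 CPM in wild-type hepatocytes (log2 -0.05 ± 0.13, adjusted p = 0.786, 95% interval -0.35 to 0.25). Sesn1, in the metabolic arm, had 3.55, 4.08 and 4.51 CPM in Tg hepatocytes, against 6.13, 6.26 and 5.75 CPM in wild-type hepatocytes. It was lower in each Tg pool, by 0.54 ± 0.18 on the log2 scale, without passing the test (adjusted p = 0.121).

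For 8 of the 10 members (all but Zmat3 and Gtse1), Tg hepatocyte pools 1 and 2 were both farther from the wild-type mean than Tg pool 3 was. Tg pools 1 and 2 and wild-type pool 1 also had a low share of mitochondrial reads, at 1.40, 1.39 and 2.01%. The shares were 3.48% in the remaining Tg pool, and 3.71 and 3.14% in the remaining wild-type pools. Without those 3 pools, a choice made after the values were seen, Ccng1 was lower by a log2 value of -0.77 and Trp53inp1 by -1.05. Only Tg pool 3 was then left in its group, so no p is given. The summed macrophage markers were 417, 620 and 318 CPM in Tg hepatocytes, against 269, 193 and 291 CPM in wild-type hepatocytes. Cd68 made up most of these sums, at 335, 476 and 193 CPM in Tg and 218, 141 and 196 CPM in wild-type hepatocytes, with overlapping ranges. All 10 markers had a log2 fold change above 0 (median 0.85), none passed in edgeR and DESeq2 called 3. The summed lymphocyte markers were 8.30, 9.22 and 12.7 CPM in Tg hepatocytes, against 1.44, 1.81 and 1.65 CPM in wild-type hepatocytes, and Ighm, the only one tested, rose (log2 3.01 ± 0.23, adjusted p = 0.00582). The summed cholangiocyte markers were 476.1, 662.9 and 728.4 CPM in Tg hepatocytes, against 765.5, 866.1 and 1290 CPM in wild-type hepatocytes. These sums did not overlap either, but Spp1 made up most of them. It stood at 294, 499.5 and 557 CPM in Tg hepatocytes, against 591, 651 and 1062 CPM in wild-type hepatocytes. Of the 8 markers tested, 5 had a log2 fold change above 0 and 3 below, with a median of 0.81. Pkhd1 alone passed in edgeR, and fell. DESeq2 called it and also Krt7, Epcam and Cldn7, which were higher. The hepatocyte markers overlapped, with sums of 40950 to 53690 CPM in Tg and 41470 to 47360 CPM in wild-type hepatocytes. The Y-linked Ddx3y stood at 5.21, 6.58 and 40.4 CPM in Tg hepatocytes, against 19.3, 77.9 and 55.0 CPM in wild-type hepatocytes, so that Tg pools 1 and 2 were the lowest. Xist was low in both groups, at 3.79, 5.51 and 3.21 CPM in Tg hepatocytes and 3.24, 3.98 and 3.84 CPM in wild-type hepatocytes. In pool 2 of the C57BL/6J livers it stood at 935 CPM. The part of the mitochondrial share, of other cells or of the sex of the mice in the members' differences was not tested. The call of Ccng1 was lost with the replicate number as a block (adjusted p = 0.0739), with scaling by library totals alone (adjusted p = 0.0536) and on leaving out any library except Tg pool 3, with an adjusted p of up to 0.219. Without Tg pool 3, 4934 of all 14103 genes tested passed, where 434 of 13770 had with all pools. Among the members, 6 passed where 1 had with all pools. They were Cdkn1a (log2 0.70, adjusted p = 0.0157) and Phlda3 (1.08, 0.0144), which were higher, and Mdm2 (-1.23, 0.0207), Eda2r (-0.80, 0.028), Trp53inp1 (-1.91, 0.0174) and again Ccng1, which were lower.

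None of the other pathway genes passed by edgeR in hepatocytes. An unadjusted p under 0.05 was found for 28.9% of all genes tested here, and DESeq2 called 15.3% of those given an adjusted p. Trp53 averaged 195 CPM in Tg hepatocytes and 167 CPM in wild-type hepatocytes (log2 0.27 ± 0.15, adjusted p = 0.246). Of 18 regulators, 3 had an unadjusted p under 0.05 and DESeq2 called 1, Mdm4, the relative of Mdm2 that also holds p53 in check, with 17.3 CPM in Tg hepatocytes and 48.4 CPM in wild-type hepatocytes (edgeR log2 -1.46 ± 0.47, adjusted p = 0.118). Of 10 other apoptosis targets, 2 had an unadjusted p under 0.05 and DESeq2 called Pmaip1, the death factor Noxa, with 5.46 CPM in Tg hepatocytes and 1.99 CPM in wild-type hepatocytes (edgeR log2 1.5 ± 0.32, adjusted p = 0.0598). Of 7 repair targets, 2 had such a p and DESeq2 called 2, Polk and Ercc5. None of 7 other arrest targets had an unadjusted p under 0.05 or was called by DESeq2. Of 11 metabolic targets 3 had such a p and DESeq2 called none, of 19 partners and paralogues 7 and 3, and of 16 proliferation genes 2 and 2.

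The difference between the Tg effects in livers and in hepatocytes was tested as a contrast of the 4 groups. Eda2r was the only member to pass, with a difference of 2.73 ± 0.39 on the log2 scale (95% interval 1.90 to 3.57, adjusted p = 0.0111). It was higher in every Tg liver, and lower in every Tg hepatocyte pool, than in the wild-type pools. Of 15565 genes tested, 0.392% had a higher effect in livers, 0.45% a lower one and 0.842% either. Cdkn1a differed by 2.33 ± 0.59 (adjusted p = 0.0718), Ccng1 by 0.99 ± 0.27 (adjusted p = 0.0866), Mdm2 by 0.88 ± 0.32 (adjusted p = 0.143) and Gtse1 by 1.58 ± 0.59 (adjusted p = 0.15). Trp53inp1 differed by 1.18 ± 0.64, Phlda3 by 0.95 ± 0.76, Zmat3 by 0.34 ± 0.27, Sesn1 by 0.25 ± 0.23 and Bax by 0.20 ± 0.25, with adjusted p-values from 0.275 to 0.631. The call of Eda2r was lost without Tg hepatocyte pool 2 (adjusted p = 0.0624). Age, plating and sequencing differ between the 2 sample kinds and cannot be told apart from tissue in this contrast.

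**Figure D4:**
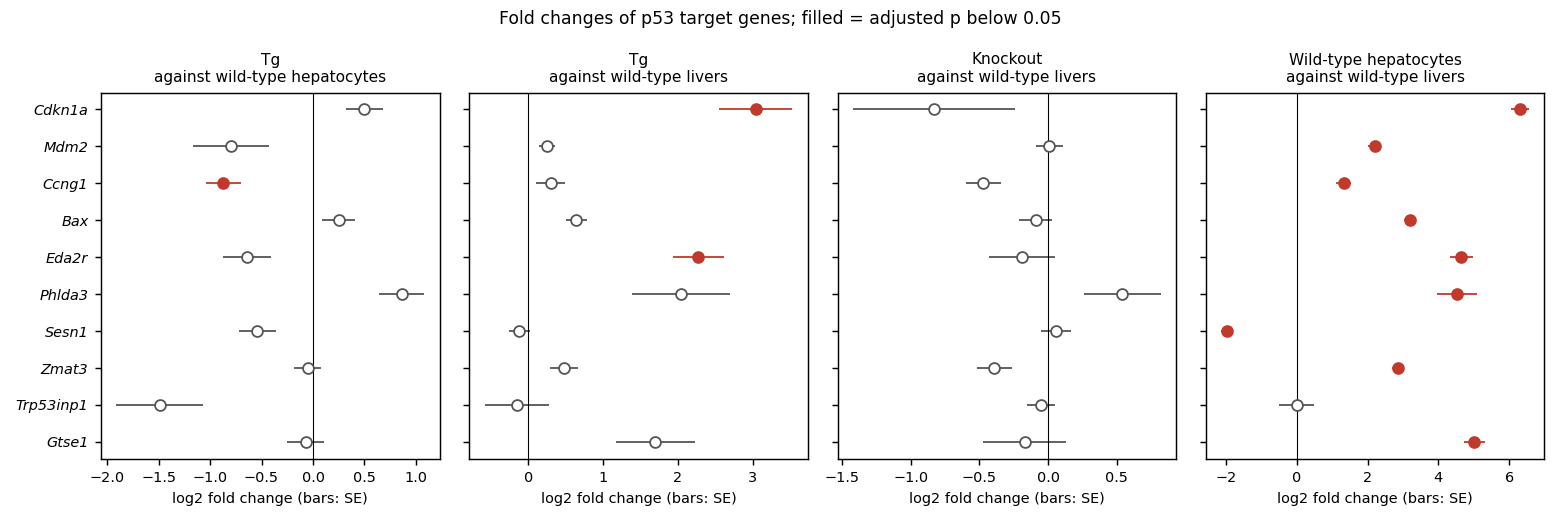
Log2 fold change of each member (points, with bars of 1 SE) in the 4 comparisons of 2 groups. Filled red points passed an adjusted p of 0.05. Panels have their own scales: Cdkn1a and Eda2r lay right of 0 in Tg livers, Ccng1 lay left of 0 in Tg hepatocytes, no member passed in knockout livers, and 9 of 10 passed in wild-type hepatocytes against livers.

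The third comparison addressed loss of A1cf. No member passed in knockout livers over 15942 genes tested by edgeR, 2 (Ccng1 and Zmat3) had an unadjusted p under 0.05, and DESeq2 called 1, Ccng1 (adjusted p = 0.0282). Of all genes, 18.4% had such an unadjusted p, and DESeq2 called 5.6% of those to which it gave an adjusted p. Of all genes tested, 1.5% were called higher by edgeR, 1.48% lower and 2.98% in either direction. The members' median log2 fold change was -0.13, against -0.01 for all genes tested. Ccng1 and Zmat3 were lower in every knockout pool than in every C57BL/6NJ pool, and none was higher in every one. Of all genes tested, 11.9% were lower in that sense, 12% higher and 23.9% either.

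Ccng1 had 27.7, 26.5 and 28.0 CPM in knockout livers, against 36.1, 31.5 and 46.0 CPM in C57BL/6NJ livers. The knockout pools were tightly grouped below the wild-type pools, with a log2 fold change of -0.47 ± 0.13 (adjusted p = 0.0816). Zmat3 had 15.5, 14.9 and 16.6 CPM in knockout livers, against 18.0, 18.7 and 24.5 CPM in C57BL/6NJ livers (log2 -0.39 ± 0.13, adjusted p = 0.147). Cdkn1a had 5.16, 8.87 and 9.94 CPM in knockout livers, against 5.68, 5.37 and 31.2 CPM in C57BL/6NJ livers. A single wild-type pool, number 3, set the fold change of -0.83 ± 0.59 (adjusted p = 0.506), and without it the sign turned to 0.52 (adjusted p = 0.38). That pool held the highest level of 6 of the 10 members in its group, a count that was not set against all genes. The pool also had 104 CPM summed over 10 lymphocyte markers, the highest in its group, of which Ighm alone made up 90.2 CPM. Its 8 cholangiocyte markers summed to 116.4 CPM, against 76.4 and 74.8 CPM in C57BL/6NJ pools 1 and 2. The part of lymphocytes or of cholangiocytes was not tested.

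Phlda3 had 4.05, 1.98 and 3.92 CPM in knockout livers, against 2.28, 2.06 and 2.52 CPM in C57BL/6NJ livers, and pool 2, the knockout pool with the least muscle transcripts, was the lowest of all 6 (log2 0.54 ± 0.28, adjusted p = 0.348). The part of muscle was not tested. Eda2r had 1.70, 2.09 and 2.27 CPM in knockout livers, against 2.51, 1.74 and 2.66 CPM in C57BL/6NJ livers, and the groups overlapped. Its log2 difference of -0.19 had a 95% interval of -0.74 to 0.35. For the other 5, the intervals all included 0. Mean levels were 31.4 CPM in knockout and 31.0 CPM in C57BL/6NJ livers for Mdm2, with a 95% interval of the log2 difference from -0.22 to 0.24. They were 11.1 CPM in knockout and 11.8 CPM in C57BL/6NJ livers for Bax, with an interval from -0.35 to 0.17. Sesn1 averaged 12.3 CPM in knockout and 11.7 CPM in C57BL/6NJ livers, with an interval from -0.19 to 0.32. Trp53inp1 averaged 88.1 CPM in knockout and 91.2 CPM in C57BL/6NJ livers (-0.28 to 0.17), and Gtse1 averaged 1.16 CPM in knockout and 1.31 CPM in C57BL/6NJ livers (-0.84 to 0.51).

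Around the members, Trp53 averaged 24.6 CPM in knockout livers and 28.8 CPM in C57BL/6NJ livers (log2 -0.24 ± 0.15, adjusted p = 0.442). For comparison, 18.4% of all genes tested had an unadjusted p under 0.05, and DESeq2 called 5.6% of those given an adjusted p. None of 19 regulators passed (3 at an unadjusted p under 0.05, and 2, Hipk2 and Trp53bp2, in DESeq2). Of 5 other arrest targets 3 had an unadjusted p under 0.05, and DESeq2 called Gadd45a and Plk3. Gadd45a, a damage-induced arrest gene, also rose by edgeR, with 7.38 CPM in knockout livers and 3.85 CPM in C57BL/6NJ livers (log2 0.94 ± 0.20, adjusted p = 0.0396). Of 11 metabolic targets 7 had an unadjusted p under 0.05, and DESeq2 called Tigar and Rps27l. Rps27l, a ribosomal protein paralogue, also fell by edgeR, to 35.8 CPM in knockout livers, against 54.1 CPM in C57BL/6NJ livers (log2 -0.60 ± 0.12, adjusted p = 0.0326). Of 19 partners and paralogues 3 had an unadjusted p under 0.05, and Bak1, the close relative of Bax, was the only one called by either tool. It fell to 10.2 CPM in knockout livers, against 14.5 CPM in C57BL/6NJ livers (log2 -0.53 ± 0.10, adjusted p = 0.026). No other apoptosis target of 10, repair target of 7 or proliferation gene of 14 passed in edgeR, with 4, 1 and 1 at an unadjusted p under 0.05 and 1 (Perp), 0 and 0 called by DESeq2.

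The effects of the Tg label and of the knockout in livers were then set against each other. Eda2r alone passed, with a Tg effect above the knockout effect by 2.45 ± 0.44 on the log2 scale (95% interval 1.52 to 3.39, adjusted p = 0.0213). Of 16295 genes tested, 0.614% had a higher Tg effect, 0.411% a lower one and 1.02% either. Cdkn1a differed by 3.85 ± 0.89 (adjusted p = 0.0532), Bax by 0.72 ± 0.19 (adjusted p = 0.0878), Zmat3 by 0.85 ± 0.26 (adjusted p = 0.12), Ccng1 by 0.76 ± 0.26 (adjusted p = 0.166) and Gtse1 by 1.86 ± 0.67 (adjusted p = 0.182). Phlda3 differed by 1.49 ± 0.82, Mdm2 by 0.22 ± 0.15, Trp53inp1 by -0.11 ± 0.55 and Sesn1 by -0.19 ± 0.19, with adjusted p-values from 0.381 to 0.953. Beyond the members, Steap3 differed by 1.38 ± 0.25 (adjusted p = 0.0276). The call of Eda2r was lost without knockout pool 1, 2 or 3 or C57BL/6NJ pool 3, with an adjusted p of up to 0.0855, and genotype, substrain and sequencing study cannot be told apart in this contrast.

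The last comparison set plated wild-type hepatocytes against wild-type livers of the same strain. Of the 10 members, 8 rose in hepatocytes, Sesn1 fell and Trp53inp1 did not pass. As 35.6% of all 14824 genes tested were called higher, 36.4% lower and 72% in either direction, a call as such was common here. The members' median log2 fold change was 3.03, against -0.04 for all genes tested. Cdkn1a averaged 284 ± 9.72 CPM in wild-type hepatocytes (SD, n = 3) and 2.75 ± 0.904 CPM in C57BL/6J livers (SD, n = 4), a log2 fold change of 6.31 ± 0.25 (adjusted p = 9.75e-08). Gtse1 was higher by 5.02 ± 0.30, Eda2r by 4.65 ± 0.33, Phlda3 by 4.52 ± 0.56, Bax by 3.19 ± 0.17, Zmat3 by 2.86 ± 0.18, Mdm2 by 2.20 ± 0.19 and Ccng1 by 1.33 ± 0.21 on the log2 scale. Sesn1 averaged 6.05 ± 0.266 CPM in hepatocytes and 18.5 ± 2.15 CPM in livers, a log2 fold change of -1.98 ± 0.15 (adjusted p = 3.5e-06).

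Trp53inp1 averaged 152 ± 64.8 CPM in hepatocytes and 115 ± 78.1 CPM in livers, a log2 fold change of 0.00 ± 0.49 (adjusted p = 0.999). Its single pools spread over 108, 227 and 122 CPM in hepatocytes and 117, 70.6, 224 and 48.6 CPM in livers, and the 95% interval of the log2 difference ran from -1.09 to 1.09. The 8 members called higher were also higher in every hepatocyte pool than in every liver pool, as were 44.3% of all genes tested, and Sesn1 was lower in every one, as were 28.9%, with 73.2% in either direction. Of 18 regulators, 6 rose and 1 fell, and Trp53 was among those that rose, with 167 CPM in hepatocytes and 19.1 CPM in livers (log2 2.76 ± 0.15, adjusted p = 4.13e-07). Of the other targets, 5 of 7 arrest, 6 of 10 apoptosis, 3 of 7 repair and 6 of 11 metabolic genes rose, and 1 arrest and 1 metabolic gene fell. The death receptor Tnfrsf10b had 39.4 CPM in hepatocytes and 0.352 CPM in livers (log2 6.41 ± 0.22, adjusted p = 4.9e-08), and the glutaminase Gls2 fell to 40.5 CPM in hepatocytes, against 434 CPM in livers (log2 -3.81 ± 0.24, adjusted p = 1.13e-06). Proliferation genes rose in 13 of 15 cases. Age, plating, cell make-up and sequencing run differ between these groups and cannot be told apart, and both groups serve as the wild type of other comparisons above.

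The study also deposited CLIP-seq counts, from RNA crosslinked to a precipitated protein, for 10 libraries of Tg hepatocytes. Of the 10 members, 9 had no count in any library, and Phlda3 had 1 count in 1 library. With totals of 6151 to 10902 counts per library, a count of 0 allows a share of up to 0.0275% to 0.0488% (3 counts), which covers counting error only. Over all 10 libraries, with 80854 counts in sum, a count of 0 allows up to 0.00371%, which is 37.1 on the CPM scale. Mean RNA levels in Tg hepatocytes were above that value for 7 members, from 390 CPM for Cdkn1a to 53.2 CPM for Trp53inp1. They were below it for Gtse1 (29.0 CPM), Eda2r (19.3 CPM) and Sesn1 (4.05 CPM). The limit does not apply to Phlda3 (119 CPM), which had 1 count. No control precipitate is among the samples, and the CLIP-seq and RNA levels were not compared in a test.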

How the data were processed

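RNA-seq and CLIP-seq tables of mouse hepatocytes and livers were read as deposited. Per the submitters' processing notes, the authors used bcl2fastq, STAR 2.0.4b, the genome build GRCm38 and featureCounts 1.45 of Subread. The annotation release, the strand setting and the handling of reads that align more than once are not given in the sources used here, so reads of antisense neighbours may be included. The deposited read counts per gene were the unit tested. The deposited CPM are those counts scaled to the library total, and the deposited RPKM are the CPM per kilobase of gene length, both made by the authors; recomputation differed by at most 5.1e-11 and 9.8e-11. RPKM served only to compare genes with each other.

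Symbols were matched for 40254 of 41388 identifiers. Each comparison of 2 groups was fitted on its own libraries with the edgeR 4.0.16 quasi-likelihood test in R 4.3.3 on counts filtered by filterByExpr (minimum count 10, minimum total 15) and scaled by TMM, edgeR's trimmed mean of M-values. The p-values are two-sided and adjusted over all genes tested by Benjamini-Hochberg, with 0.05 as the threshold. Effects were compared as contrasts of 4 group means. All members passed the filter in each comparison. DESeq2 1.42.0 was an alternative, beside other scalings, no filter, a common fit, a replicate block and leaving out each library. The script was tested on simulated data with known changes. Depth ran from 17044839 to 37211328 counts per RNA library, and the 3 to 4 pools per group limit the precision.

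The members, the other gene lists and the tests were chosen with earlier results of these data known. All members are named, and from each other list Trp53 or at most the 4 genes with the smallest p in a comparison. Replicate numbers are shared between groups, but the labels do not say that they mark a common batch, and the correlations of same-numbered libraries' deviations from their group means ran from -0.506 to 0.686 over 10 pairs, so the samples were treated as unpaired.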

Additional observations from a re-analysis of the deposited data

Results flagged for a closer look

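Phlda3 in C57BL/6J livers had 1 library far from the other 3. Pool 2 had 5.73 CPM and the others 0.912 to 1.21 CPM, and the gap to the nearest library was 0.937 of the group's range. The same pool had 2115 CPM summed over 10 skeletal muscle genes, against at most 3.14 CPM in the other 3. It also had 935 CPM of Xist and 0.198 CPM of Ddx3y, against at most 2.35 and at least 62.2 CPM in the other 3. The part of muscle, of sex or of other cells in its Phlda3 level was not tested. In the CLIP-seq data, 1 library had 1 count of Phlda3 and the other 9 had none, so that the gap was 1 of the range, at a depth where a single count is within counting error. In this way 21 groups of 4 to 10 libraries were looked at, of which chance flags about 1 in 20 if values are normally distributed. That rate does not hold for the CLIP-seq group, where a count in a single library is always flagged.

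The effect of the Tg label on Eda2r differed between sample kinds. It was higher in livers than in hepatocytes by 2.73 on the log2 scale (edgeR adjusted p = 0.0111), and it was higher than the knockout effect in livers by 2.45 (edgeR adjusted p = 0.0213). Eda2r was higher in 4 of 4 Tg livers, lower in 3 of 3 Tg hepatocyte pools and overlapped its wild-type group in knockout livers.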

How the results depend on the processing

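Over the members, 324 of 370 values under alternatives other than leaving out 1 library kept their direction and their side of the threshold, 27 passed the threshold newly, 7 no longer passed it and 12 changed sign. Of 550 values with 1 library left out, the numbers were 497, 18, 19 and 16. With RLE size factors in edgeR all 60 of 60 kept both. Among the new calls, DESeq2 called Bax (adjusted p = 0.00318), Phlda3 (0.0114) and Gtse1 (0.0289) in Tg livers, and Phlda3 (0.00865) and Trp53inp1 (0.0076) in Tg hepatocytes. In Tg hepatocytes Trp53inp1 also passed in edgeR with no filter (adjusted p = 0.0417) and in the common fit (0.0306), where Mdm2 passed too (0.036). The causes of these changes were not tested.

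Counts of all genes called depended on the method. For Tg against wild-type hepatocytes (434), DESeq2 called 2027, no filter 669 and 1 fit over all 6 groups 4323. For Tg against C57BL/6J livers (188), DESeq2 called 1242, the common fit 991, library totals 285 and leaving out Tg pools 3 and 4 gave 18. For knockout livers (475), DESeq2 called 892, no filter 1079 and the common fit 42. For the difference between the Tg effects in livers and hepatocytes (131), DESeq2 called 968, no filter 86, the common fit 889 and library totals 349. For the Tg effect minus the knockout effect (167), DESeq2 called 796 and library totals 317. Wild-type hepatocytes against livers (10669) stayed within 1.5 times under every alternative run.

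With the replicate number as a block, 21 genes were called in hepatocytes, 44 in Tg livers, 415 in knockout livers, 21 for the difference between livers and hepatocytes and 66 for Tg minus knockout. Among the members the block changed only the calls of Ccng1 in hepatocytes and of Cdkn1a and Eda2r in Tg livers. The numbers were not shown to pair the samples, and wild-type hepatocytes and livers came from mice of different ages, so no block was fitted there.

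Leaving out 1 library gave 0 (without wild-type pool 3, where 2402 genes had an unadjusted p under 0.05) to 4934 (without Tg pool 3) calls in hepatocytes, 27 (without C57BL/6J pool 3) to 561 (without Tg pool 1) in Tg livers and 137 (without knockout pool 1) to 645 (without C57BL/6NJ pool 1) in knockout livers. It gave 9744 to 10823 in wild-type hepatocytes against livers, 5 (without Tg hepatocyte pool 2) to 3545 (without Tg hepatocyte pool 3) for livers minus hepatocytes, and 24 (without knockout pool 1) to 449 (without Tg liver pool 1) for Tg minus knockout.

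Library totals in place of TMM moved the median log2 change of all genes to 0.132 in Tg livers, 0.333 in wild-type hepatocytes against livers, 0.266 for livers minus hepatocytes and 0.153 for Tg minus knockout. Calls split into 251 higher and 34 lower in Tg livers (137 and 51 with TMM, 763 and 479 in DESeq2), 6682 and 4330 in wild-type hepatocytes against livers (5273 and 5396), 311 and 38 for livers minus hepatocytes (61 and 70) and 249 and 68 for Tg minus knockout (100 and 67).

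All changes of sign were in values that did not pass the test. In hepatocytes the common fit gave 0.14 for Zmat3 and 0.12 for Gtse1. In Tg livers Trp53inp1 was 0.09 with the block, 0.00 with library totals and 0.06 without Tg pools 3 and 4, and Sesn1 was 0.01 and 0.04 under these last 2 settings. Trp53inp1 in wild-type hepatocytes against livers was 0.11 with no filter, 0.06 in the common fit and 0.40 with library totals, and for Tg minus knockout 0.13 with the block and 0.05 with library totals. With 1 library left out, Zmat3 ranged from -0.10 to 0.06 and Gtse1 from -0.15 to 0.10 in hepatocytes, and Trp53inp1 from -0.41 to 0.43 in Tg livers. In knockout livers Cdkn1a ranged from -1.21 to 0.52, Mdm2 from -0.07 to 0.08, Sesn1 from -0.01 to 0.14, Trp53inp1 from -0.13 to 0.03 and Gtse1 from -0.32 to 0.06. Trp53inp1 ranged from -0.36 to 0.67 in wild-type hepatocytes against livers and from -0.36 to 0.49 for Tg minus knockout. Depth limits Gtse1, Eda2r and Phlda3 in livers, whose levels were below 1 CPM in 1 or more pools.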
